A study of Mus musculus with 6 samples.

Results

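The 90 probes described here measure 49 genes of fatty acid oxidation, the peroxisome and the citrate cycle, out of 21888 probes in the deposited table and 10818 tested genes. They were chosen by gene symbol alone, as every probe whose only symbol in the platform annotation belongs to the acyl-CoA dehydrogenases, oxidases, hydratases, isomerases, synthetases, thioesterases or thiolases, the carnitine palmitoyltransferases, the peroxins, the pyruvate dehydrogenase complex or the enzymes of the citrate cycle. The rule itself uses no measured value, although it was set with earlier results of these data known. All 90 had a value on at least 4 of 6 arrays, the minimum for a test, with 82 measured on 6 arrays, 5 on 5 and 3 on 4.

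The study set RNA of the embryonic pancreas of Sox4 knockout mice (homozygous mutants) beside RNA of their wild-type littermates at embryonic day 12.5, to see which genes differ across the genome when this SoxC transcription factor is missing. Each array carried the knockout RNA in channel 2 and the wild-type RNA in channel 1, and the deposited value is 1 log2 ratio per probe. A positive ratio is read as higher in the knockout RNA (KO over WT). That direction is only likely, on the basis of the channel order and the titles, because no label read here names the dyes. The channel order was the same on every array, so a channel bias of a probe and a difference between the genotypes cannot be told apart. Per the label of arrays 1 and 2, the pancreases were pooled into 2 groups before RNA isolation, so the p-values take in array-to-array variation only, possibly technical, and say nothing of variation between embryos. A ratio holds no level, so levels of the genes cannot be compared, and fewer cells of a type and less RNA per cell cannot be told apart. Neither probe of Sox4 was past the threshold, at -0.03 (limma adjusted p 0.892) and -0.09 (limma adjusted p 0.446). No source read here places those probes relative to the deleted part, so Sox4 checks neither the labels nor the direction.

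Mitochondria break fatty acids down in a spiral: carnitine palmitoyltransferases bring the acyl chain in, acyl-CoA dehydrogenases of different chain-length preference start each turn, and a hydratase, a hydroxyacyl-CoA dehydrogenase and a thiolase complete it. Peroxisomes, which peroxins build and fill with enzymes, shorten very long and branched chains. The acetyl-CoA from both, and from pyruvate through the pyruvate dehydrogenase complex, enters the citrate cycle. In adult animals the liver, heart and brown fat are known for high use of fatty acids, while the early embryonic pancreas is a growing epithelium within mesenchyme.

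In the comparison of the knockout with the wild-type RNA, 6 of the 90 probes were past a limma adjusted p of 0.05 (Benjamini-Hochberg over all 21247 tested probes), a share of 6.67%. Over all tested probes the share was 5.49%, so the share of these metabolic genes lay near that of the array as a whole. The called probes of Acads, Eci2 and Dlst rose, and those of Acadl, Echdc1 and Hadhb fell, each by 1.31-fold to 1.46-fold. The other probes of Acadl and Dlst, not past the threshold, lay on the opposite side of 0 from the called one. The 3 probes above 0 were 3.33% of the members, against 1.96% of all tested probes, and the 3 under 0 were also 3.33%, against 3.53%. The median over the members' mean log2 ratios was 0.05, against 0.03 over all tested probes, and the quartiles were -0.15 and 0.25 in both. At an unadjusted p under 0.05 there were 26 members (28.9%, against 27.6% of all tested probes). The members lay on both sides of 0: 53 probes had a mean above 0 and 37 a mean under 0.

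The calls depended on which arrays were kept. With array 2 left out, 4 of 87 tested member probes (4.6%) were past the threshold (Acads, Acadl, Echdc1 and Hadhb), against 5.23% of all tested probes. With array 1, 3, 4, 5 or 6 left out limma called 0 members. At an unadjusted limma p under 0.05 there were then 21 of 87, 18 of 88, 20 of 88, 19 of 89 or 16 of 89 members. Over all tested probes there were 5074 of 20425, 4959 of 20625, 4776 of 20489, 4725 of 20776 or 4678 of 20893. The number of calls over all probes was 1166 on 6 arrays, and 18, 1072, 45, 11, 10 or 13 without array 1, 2, 3, 4, 5 or 6. Without median centring the split of all called probes was 849 above 0 and 409 under 0 (67.5% above, against 35.7% with it), and the members' split was 5 above and 3 under, a share of 8.89% against 5.92% of all tested probes. With quantile normalization all called probes were split into 1298 above 0 and 491 under 0 (72.6% above), and the members again into 5 above and 3 under, against 8.42% of all tested probes called. Each of these settings moved the median of all probes by 0.10, and the 6 probes kept their direction and their call under both.

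**Figure D1:**
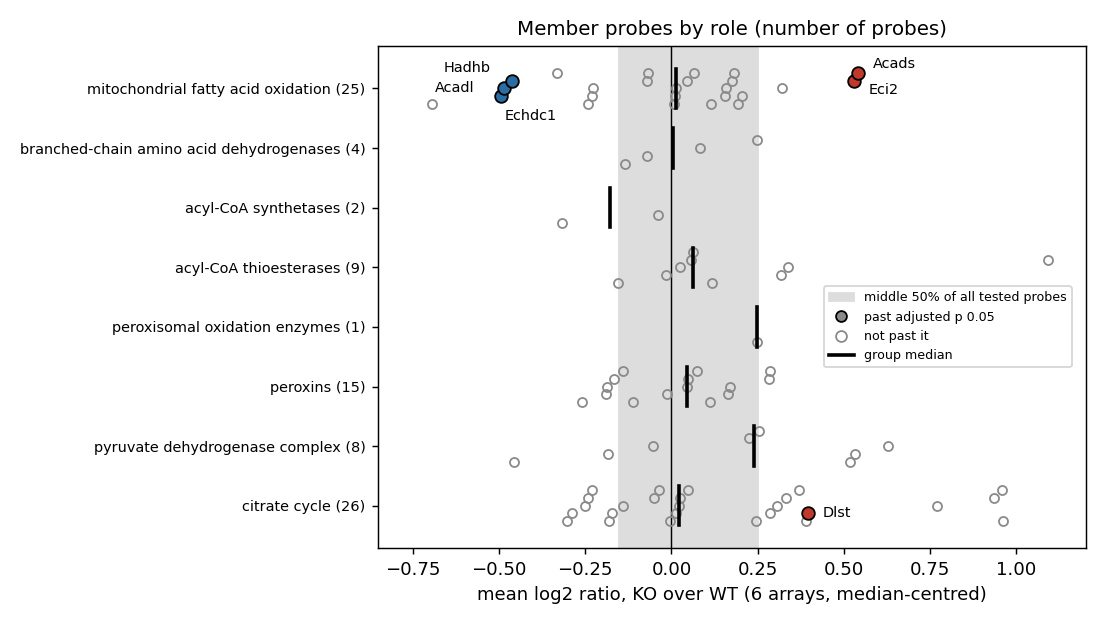
Mean log2 ratio (KO over WT, horizontal axis) of each of the 90 member probes, in rows by role with the number of probes in brackets. Filled points are the 6 probes past an adjusted p of 0.05, black bars are the group medians, and the grey band from -0.15 to 0.25 holds the middle 50% of all tested probes. The filled points lie on both sides of 0, and 5 of them are in the mitochondrial oxidation row, which also holds the related enzyme Echdc1.

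The 25 probes of mitochondrial fatty acid oxidation, for 16 genes, included 2 calls above 0 and 3 under 0, and their median was 0.01. Over all tested probes 1.96% had a call above 0 and 3.53% a call under 0. The share of calls by role was not tested, and the role groups were set with earlier results known. Each gene was put in 1 role group, and whether its enzyme also works in another part of the cell, such as the peroxisome, was not looked at. Of the 3 calls under 0 in this group, that of Echdc1 is for a related enzyme that takes no part in oxidation. Acads, the acyl-CoA dehydrogenase for short chains, had log2 ratios (KO over WT) of 0.39, 0.96, 0.34, 0.27, 0.60 and 0.70 on arrays 1 to 6. All 6 arrays were above 0, and array 2 was the highest. The mean was 0.54 ± 0.26 (SD, n = 6), a 1.46-fold higher ratio with a limma adjusted p of 0.0429. Acads had a single probe, so no other probe of the gene bears on it.

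Eci2, an enoyl-CoA isomerase that moves the double bond of unsaturated chains so that they can enter the spiral, had ratios of 0.25, 0.62, 0.53, 0.20, 0.78 and 0.79. All 6 arrays were above 0, with arrays 1 and 4 the lowest. Its mean was 0.53 ± 0.26 (SD, n = 6), a 1.44-fold higher ratio, with a limma adjusted p of 0.0429. Its close relative Eci3, the gene next to it on chromosome 13 in RefSeq, averaged 0.20 ± 0.16 and was above 0 on all 6 arrays, but was not past the threshold (limma adjusted p 0.158). Whether the probes of these related genes capture each other's RNA was not tested. Eci1, a further enoyl-CoA isomerase, was measured on 4 arrays, at 0.01, -0.32, -0.02 and -0.99, and all 4 ratios were quotients of small whole numbers.

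Hadhb encodes the beta subunit of the mitochondrial trifunctional protein, which carries the thiolase step for long chains. Its ratios were -0.26, -0.56, -0.27, -0.43, -0.66 and -0.59, under 0 on all 6 arrays and lowest on array 5. The mean was -0.46 ± 0.17 (SD, n = 6), 1.38-fold lower in the knockout RNA, with a limma adjusted p of 0.0363. The alpha subunit gene Hadha, which lies next to Hadhb on chromosome 5 in RefSeq, is not analysed here. Hadh, the dehydrogenase of the third step for shorter chains, averaged -0.24 ± 0.14 and was under 0 on all 6 arrays, with a limma adjusted p of 0.100.

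Acadl, the acyl-CoA dehydrogenase for long chains, had ratios of -0.37, -0.27, -0.74, -0.52, -0.57 and -0.45 at its probe PX-00629O19. All arrays were under 0, and arrays 1 and 2 were the closest to it. This probe averaged -0.49 ± 0.16 (SD, n = 6), 1.40-fold lower, with a limma adjusted p of 0.0336. The other probes of Acadl averaged 0.15 ± 0.22 and 0.18 ± 0.58 and were not past the threshold, so the direction of Acadl differed between its probes.

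Echdc1, an ethylmalonyl-CoA decarboxylase that removes a side product of fatty acid synthesis, had all of its 3 probes under 0. At the probe past the threshold the ratios were -0.33, -0.36, -0.70, -0.40, -0.63 and -0.54, a mean of -0.49 ± 0.15 (SD, n = 6), 1.41-fold lower, with a limma adjusted p of 0.0303. All 6 arrays were under 0 there. The other probes averaged -0.23 ± 0.22 and -0.23 ± 0.19, each with 5 of 6 arrays under 0 and with limma adjusted p of 0.176 and 0.151. With 1 value per gene, the mean over its probes, Echdc1 stayed past the threshold at -0.32 (limma adjusted p 0.0399). Under that setting 4 of 49 member genes passed (8.16%, against 5.82% of all 10818 genes): Acads, Eci2, Hadhb and Echdc1.

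**Figure D2:**
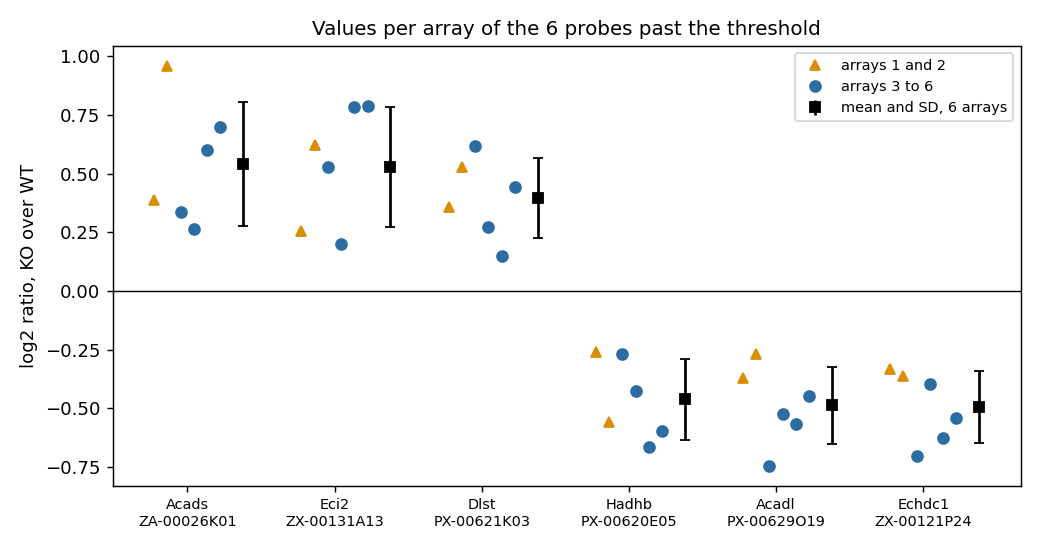
Log2 ratio (KO over WT, vertical axis) on each array for the 6 probes past the threshold, with arrays 1 and 2 as triangles, arrays 3 to 6 as circles and the mean and SD over 6 arrays as squares with bars. Acads, Eci2 and Dlst are above 0 on every array, and Hadhb, Acadl and Echdc1 are under 0 on every array.

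The acyl-CoA dehydrogenases can be set in the order of the chain length that they prefer. Acadvl, for very long chains, averaged 0.18 ± 0.19 and 0.01 ± 0.19 at its probes, and Acadl lay under 0 at 1 of its 3 probes. Acadm, for medium chains, had ratios of -0.19, 1.09, 0.19, -0.06, 0.52 and 0.35 and averaged 0.32 ± 0.46, with a limma adjusted p of 0.265. Its arrays lay on both sides of 0, and Acads alone in this row was past the threshold above 0. Acad9, which also serves the assembly of respiratory complex I, averaged 0.12 and -0.07, and Acad10 averaged 0.16 ± 0.86 with its arrays from -0.80 to 1.72. No difference between these genes was tested.

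Among the remaining members of the mitochondrial group, Cpt2, the inner-membrane carnitine palmitoyltransferase, had ratios of -0.15, -0.94, -0.36, -0.37, -0.12 and -2.24. All 6 arrays were under 0, but the spread was wide, with a mean of -0.69 ± 0.81 and a limma adjusted p of 0.176. The thiolase Acaa2 averaged 0.07 ± 0.31. The Echdc2 and Echdc3 probes, for hydratase-like proteins, averaged between -0.07 and 0.19. No probe of Cpt1a, Hadha, Pex5 or Idh1 entered the members, so these genes are not analysed here.

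The promoters of Acads, Eci2, Acadl and Hadhb are shown because these genes encode enzymes that act on the fatty acid chain and had calls on both sides of 0. They are RefSeq sequences of build GRCm38.p6, 5′ to 3′ on the strand of the gene, from 250 bases before to 50 after the start. The Acads promoter is chr5:115119297-115119596 on the minus strand, that of Eci2 chr13:34994095-34994394 on the minus strand, that of Acadl chr1:66863260-66863559 on the minus strand and that of Hadhb chr5:30155003-30155302 on the plus strand. Capitals mark matches on either strand to GGGCGG, the GC box that Sp1 family factors bind, and to ACAAAG, a core of the sites of Sox and TCF factors.
Acads: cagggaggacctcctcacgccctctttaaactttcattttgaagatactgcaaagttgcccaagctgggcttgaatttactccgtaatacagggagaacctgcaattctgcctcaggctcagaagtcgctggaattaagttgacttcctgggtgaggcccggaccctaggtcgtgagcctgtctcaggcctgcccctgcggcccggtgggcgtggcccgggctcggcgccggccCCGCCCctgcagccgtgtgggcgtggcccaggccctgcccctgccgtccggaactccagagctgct
Eci2: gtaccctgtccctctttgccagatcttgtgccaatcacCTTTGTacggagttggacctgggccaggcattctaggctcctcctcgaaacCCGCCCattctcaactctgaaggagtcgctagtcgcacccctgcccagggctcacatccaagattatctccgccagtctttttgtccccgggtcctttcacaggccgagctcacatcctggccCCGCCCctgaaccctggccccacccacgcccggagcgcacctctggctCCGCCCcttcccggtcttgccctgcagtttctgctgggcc
Acadl: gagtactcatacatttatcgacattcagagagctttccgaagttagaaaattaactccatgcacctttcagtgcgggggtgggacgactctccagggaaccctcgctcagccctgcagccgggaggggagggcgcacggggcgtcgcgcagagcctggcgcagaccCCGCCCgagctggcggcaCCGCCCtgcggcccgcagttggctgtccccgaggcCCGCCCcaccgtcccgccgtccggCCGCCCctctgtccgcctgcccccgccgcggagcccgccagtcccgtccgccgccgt
Hadhb: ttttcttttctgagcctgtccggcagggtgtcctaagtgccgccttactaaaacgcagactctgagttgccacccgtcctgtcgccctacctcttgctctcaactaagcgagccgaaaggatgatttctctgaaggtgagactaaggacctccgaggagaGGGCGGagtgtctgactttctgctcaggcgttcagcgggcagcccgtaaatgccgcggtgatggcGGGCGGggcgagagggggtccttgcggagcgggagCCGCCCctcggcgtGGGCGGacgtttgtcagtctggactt
GGGCGG matched 1, 3, 4 and 4 times in the Acads, Eci2, Acadl and Hadhb promoters, and it was present in 35.7% of all 32851 promoters of this length. ACAAAG matched once in the Eci2 promoter and was not found in the other windows, against 18.7% of all promoters. AGGTCA, the core of many nuclear receptor sites, and DR1, its direct repeat with 1 base between the copies, which PPAR and RXR bind, had no match in these windows, and they were in 16.3% and 0.0396% of all promoters. Matches were counted on both strands, and each DR1 holds AGGTCA. The member genes with an entry, 42 of 49, had 50 promoters in all. Of these, 66% held GGGCGG, 20% AGGTCA, 10% ACAAAG and 0% DR1, and 46% held CCAAT against 37.4% of all promoters. Their median GC content was 59.7%, against 52.7% over all promoters. These matches describe the sequence and are not measurements of binding.

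The citrate cycle had 26 probes for 11 genes, with 1 past the threshold, above 0. Dlst, the succinyltransferase subunit of the oxoglutarate dehydrogenase complex, had ratios of 0.36, 0.53, 0.62, 0.27, 0.15 and 0.44 at its probe PX-00621K03. All arrays were above 0. The mean was 0.39 ± 0.17 (SD, n = 6), a 1.31-fold higher ratio, with a limma adjusted p of 0.0462. The other Dlst probe was on the opposite side, at -0.18 ± 0.16 with 5 of 6 arrays under 0 and a limma adjusted p of 0.201. Ogdh, the first subunit of the same complex, also had probes on both sides, at 0.39 ± 0.36 and -0.24 ± 0.62, neither past the threshold. With 1 value per gene, Dlst was not past the threshold.

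Mdh1, the cytosolic malate dehydrogenase of the malate-aspartate shuttle, showed small ratios under 0 at 3 of its 4 probes. The probe ZX-00127B23 had ratios of -0.07, -0.42, -0.51, -0.23, -0.26 and -0.32, the probe ZA-00024D21 averaged -0.29 ± 0.18, and the probe ZX-00118O20 averaged -0.17 ± 0.13. Of these 3 probes none was past the threshold, with limma adjusted p of 0.0706, 0.0916 and 0.181. The fourth probe, ZA-00024N21, ranged from -3.01 to 2.97 on 5 arrays, and 80% of its ratios were quotients of small whole numbers, as spots of very low intensity can give. Mdh2, the mitochondrial enzyme, averaged 0.05 ± 0.10, and Mdh1b, a relative of Mdh1, averaged 0.93 ± 1.16 on 4 arrays.

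Cs, the citrate synthase that opens the cycle, had 5 probes with means of -0.01, 0.02, 0.25, 0.29 and 0.31, none past the threshold. The probe PX-00630M08 was at -0.15 and -0.56 on arrays 1 and 2 and at 0.80, 0.31, 0.59 and 0.84 on arrays 3 to 6, so its direction differed between these sets of arrays. Sucla2, the ATP-forming subunit of succinyl-CoA ligase, had 4 probes with means from -0.25 to 0.96. The tightest of these, ZX-00118J13, was at 0.37 ± 0.34 (limma adjusted p 0.135), and the other 3 had 50% or more of their ratios at quotients of small whole numbers. Suclg1, the shared alpha subunit, averaged -0.23 ± 0.23 and -0.05 ± 0.18. Idh3a and Idh3g, subunits of the isocitrate dehydrogenase of the cycle, had means from -0.14 to 0.33, and the fumarase Fh1 was at 0.01 ± 0.43.

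In the pyruvate dehydrogenase complex, with 8 probes for 3 genes, none was past the threshold and the median was 0.24. Pdha2, the testis form of the E1 alpha subunit, had the smallest p, with ratios of -0.09, 0.53, 0.53, 0.97, 0.42 and 0.75 at PX-00619P13, a mean of 0.52 ± 0.36 and a limma adjusted p of 0.0729. Its other probe was on the opposite side, at -0.46 ± 0.52. Pdhb, the E1 beta subunit, had means of 0.63 ± 0.78, -0.05 ± 0.18 and -0.18 ± 0.13. Dld, the E3 subunit shared with the oxoglutarate complex, averaged 0.23, 0.25 and 0.53, and none of its probes kept 1 sign on every array.

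Of the 15 peroxin probes, for 8 genes, none was past the threshold, and means ran from -0.26 to 0.29 with a median of 0.05. Pex3, a receptor in the peroxisomal membrane for newly made membrane proteins, had 5 probes. The one with the smallest p in this group, ZX-00127D20, was at -0.23, -0.10, -0.42, -0.33, -0.20 and -0.28, a mean of -0.26 ± 0.11 with a limma adjusted p of 0.0743. All 6 arrays of that probe were under 0, and the other Pex3 probes averaged -0.19, -0.19, -0.14 and 0.17. Pex19, the carrier that hands membrane proteins to Pex3, was at 0.29 ± 0.26 and -0.17 ± 0.10. Pex16, which also acts in membrane assembly, was above 0 on all 6 arrays, at 0.28 ± 0.18 with a limma adjusted p of 0.0937. The matrix import factors Pex7 (0.11 and 0.05), Pex13 (-0.01) and Pex26 (0.17) were closer to 0 than Pex16, as were Pex11g (-0.11 and 0.05) and Pex5l (0.07). Acoxl, a relative of the acyl-CoA oxidases, was the only member probe in the group of peroxisomal oxidation enzymes. Its ratios were 0.30, 0.54, 0.86, 0.45, 0.04 and -0.69, a mean of 0.25 ± 0.53 with a limma adjusted p of 0.438. Other enzymes of peroxisomal oxidation, such as Ehhadh, Hsd17b4 and Scp2, fell outside the symbol rule. They are counted among the further peroxisomal genes below.

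The enzymes that make or cleave acyl-CoA held no call with all arrays in 1 set. Acsl3, an acyl-CoA synthetase, was at -0.09, 0.32, -0.36, -0.36 and -1.09 on arrays 1 to 5, with a mean of -0.32 ± 0.52 and a limma adjusted p of 0.352, and Acsl5 averaged -0.04 ± 0.10. The 9 thioesterase probes, for 6 Acot genes, had a median of 0.06. Acot12, a cytosolic acetyl-CoA hydrolase, had the mean furthest from 0 of all 90 probes at PX-00619D15, 1.09 ± 1.01 on 5 arrays, from ratios of 0.06, 0.17, 1.71, 1.07 and 2.44. Of these ratios 60% were quotients of small whole numbers, its limma adjusted p was 0.138, and the other Acot12 probe averaged 0.06 ± 0.60. The remaining thioesterases, Acot6, Acot7, Acot9, Acot11 and Acot13, averaged from -0.15 to 0.34.

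Acadsb and Acad8, dehydrogenases of branched-chain amino acid breakdown, had 4 probes and no call. The Acadsb probe ZA-00031F13 came closest, at 0.18, 0.20, 0.27, 0.23, 0.35 and 0.25, with a mean of 0.25 ± 0.06 and a limma adjusted p of 0.0624. All 6 arrays were above 0 and close together, while the other Acadsb probe averaged -0.07 ± 0.18. The Acad8 probes averaged 0.08 ± 0.10 and -0.13 ± 0.16.

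Different probes of a gene often disagreed. Of the 49 member genes 25 had several probes, and in 17 of these (68%) the means lay on both sides of 0, against 53.4% of the 3965 such genes among all tested probes. In 6 genes all means were above 0 and in 2, Echdc1 and Suclg1, all were under 0. Among the 6 called probes, those of Acads, Eci2 and Hadhb are the only probes of their genes, that of Echdc1 shares its sign with the other probes, and those of Acadl and Dlst do not. The median SD of a member probe over the arrays was 0.21, against 0.29 over all tested probes. Probes with 50% or more of their ratios at quotients of small whole numbers made up 16.7% of the members, against 18.6% of all tested probes, and none of the 6 called probes was among them.

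**Figure D3:**
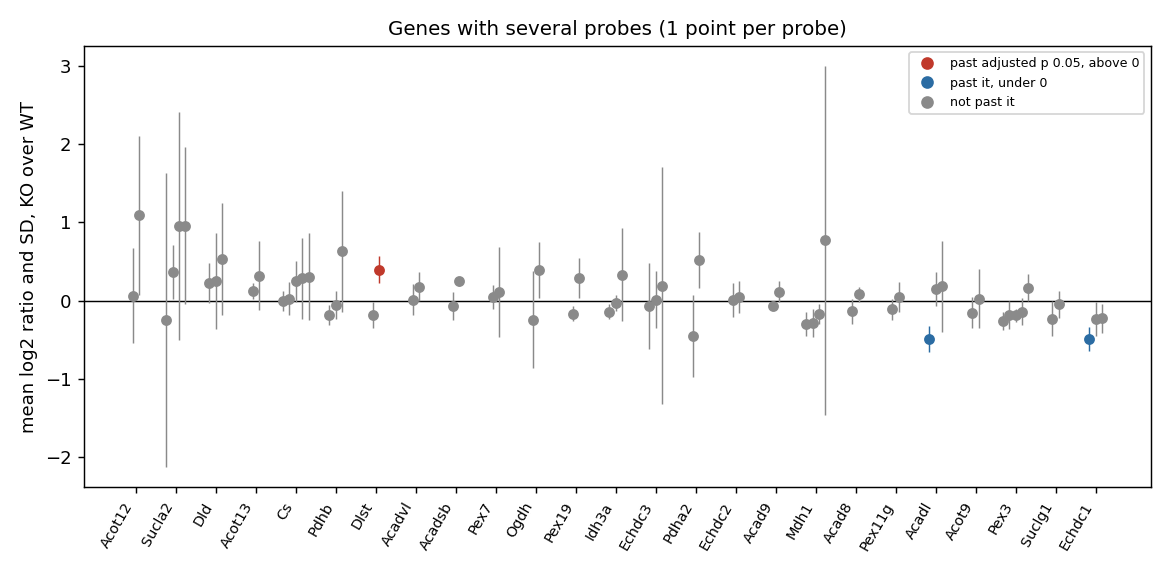
Mean log2 ratio with its SD over arrays (KO over WT, vertical axis) for each probe of the 25 member genes with several probes, 1 point per probe. The called probes of Acadl (blue) and Dlst (red) lie on the other side of 0 from the remaining probes of their gene, whereas the 3 Echdc1 probes are all under 0.

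Arrays 1 and 2 are the only ones whose label describes the sample preparation. Over all tested probes they stood apart from arrays 3 to 6. Across member probes the correlations within and between these sets overlapped only through array 4, with Spearman's rho of 0.57 to array 1 and 0.43 to array 2. The pairs of arrays 1 and 2 with arrays 3, 5 and 6 ran from 0.06 to 0.26. Over all tested probes array 4 was also the closest of arrays 3 to 6 to array 1 (0.32) and to array 2 (0.24). Across member probes, which are not independent replicates, Spearman's rho was 0.57 between arrays 1 and 2, 0.28 to 0.57 among arrays 3 to 6 and 0.06 to 0.57 between these sets. Over all tested probes it was 0.52 between arrays 1 and 2, 0.44 to 0.58 among arrays 3 to 6 and 0.05 to 0.32 between the sets. The 6 called probes had the same sign in both: on arrays 1 and 2 and on arrays 3 to 6, Acads averaged 0.67 and 0.48, Eci2 0.44 and 0.58, Dlst 0.44 and 0.37, Hadhb -0.41 and -0.49, Acadl -0.32 and -0.57, and Echdc1 -0.35 and -0.57. These probes were called on the same 6 arrays, so an equal sign in both sets was likely from the outset and is no separate support. A limma test of the difference between the sets called 0 of 90 member probes and 0 of 21247 tested probes, with 10 members (11.1%) and 15.4% of all tested probes at an unadjusted p under 0.05. The furthest apart at that level, by the means on arrays 1 and 2 and on arrays 3 to 6, were Mdh1b (-0.05 and 1.92), Acot12 PX-00619D15 (0.12 and 1.74), Pdhb ZX-00145I24 (1.40 and 0.24, the opposite direction) and Cs PX-00630M08 (-0.35 and 0.64). With the array set as a term in the limma fit, 8 member probes were called (8.89%, against 7.71% of all tested probes), the 6 above with Acot12 PX-00619D15 (limma adjusted p 0.0449) and Mdh1b (limma adjusted p 0.0320). The Acot12 probe had 5 arrays, with 60% of its ratios at quotients of small whole numbers, and Mdh1b had 4 arrays and 50%. Of the members, 21 kept 1 sign on every measured array (23.3%, against 22.4% of all tested probes), 8 above 0 and 13 under 0.

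**Figure D4:**
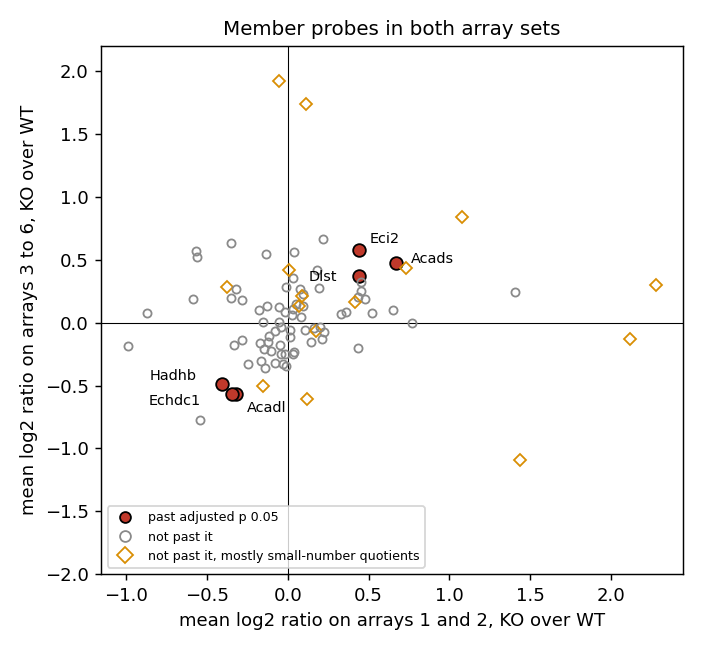
Mean log2 ratio (KO over WT) of each member probe on arrays 1 and 2 (horizontal axis) and on arrays 3 to 6 (vertical axis). The 6 called probes, filled, lie in the quadrants where both means have the same sign, which a call on all 6 arrays makes likely. The 5 probes furthest from 0 on either axis have 50% or more of their ratios at quotients of small whole numbers (diamonds). The next furthest, Pdhb ZX-00145I24 at 1.40 on arrays 1 and 2, has 0% of its ratios at such quotients.

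Genes of the same pathways and their regulators that the symbol rule did not take in formed 4 lists, of 22, 27, 28 and 19 probes. In these lists together 5 probes were past the threshold, where 5.49% of all tested probes were. Among 10 further genes of fatty acid oxidation, Oxct1, which activates ketone bodies for use as fuel, was past it above 0 at 1 of 4 probes (0.47 ± 0.11, limma adjusted p 0.0298), with its other probes from -0.15 to 0.25. Decr1, the dienoyl-CoA reductase for unsaturated chains, was past it under 0 at 1 of 4 probes (-0.32 ± 0.06, limma adjusted p 0.0385), with its other probes from -0.11 to 0.37. Of 12 further peroxisomal genes, Lonp2, a protease of the peroxisome, passed above 0 at 1 of 3 probes (0.41 ± 0.16, limma adjusted p 0.0419), with its other probes at 0.30 and -0.09. Of 17 further genes of pyruvate and citrate handling none passed at an adjusted p of 0.05 by limma, with 7 of 28 probes at an unadjusted p under 0.05, and Pdk3, a kinase that switches off pyruvate dehydrogenase, had the smallest p (0.38 ± 0.21, limma adjusted p 0.063). Among 12 lipid-sensing regulators and their targets, Cd36, a fatty acid transporter, was past the threshold under 0 (-0.46 ± 0.15, limma adjusted p 0.0341) and Angptl4, a secreted lipase inhibitor, above 0 (0.60 ± 0.30, limma adjusted p 0.0425), its other probe being at 0.24. The medians of these 4 lists, in that order, were -0.06, -0.02, -0.003 and 0.01.

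Markers of other tissues were read on the same arrays. Of 11 liver genes measured, 6 had a call under 0, at 9 of 18 probes, and 0 a call above 0, with a list median of -0.46 and array medians from -0.63 to -0.44. Afp (-2.06, -2.05 and -1.90, with its other probe at 0.01), Ambp (-0.77) and Fgb (-1.12 and -0.92) had the smallest p. Members' array medians ran from -0.05 to 0.03. Of 7 muscle and fat genes, Fabp4 was past the threshold, under 0 at -1.34, while the fat genes Adipoq (-0.01) and Ucp1 (-0.05) and the muscle genes were not, and the list median was -0.21. Of 8 genes of the pancreatic epithelium, Cpa1 was past it under 0, at 3 probes, with a list median of 0.07. None of 5 mesenchyme genes passed by limma, with 1 of 9 probes at an unadjusted p under 0.05, for Lum (1.01 ± 0.96, limma adjusted p 0.119), and of 6 erythroid genes Hba-a1 passed at 1 of 17 probes, at 0.40, with its other probes from -0.39 to 0.05. The part of these tissues in the ratios of Acadl, Hadhb, Echdc1, Acads, Eci2 and Dlst was not tested.

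**Figure D5:**
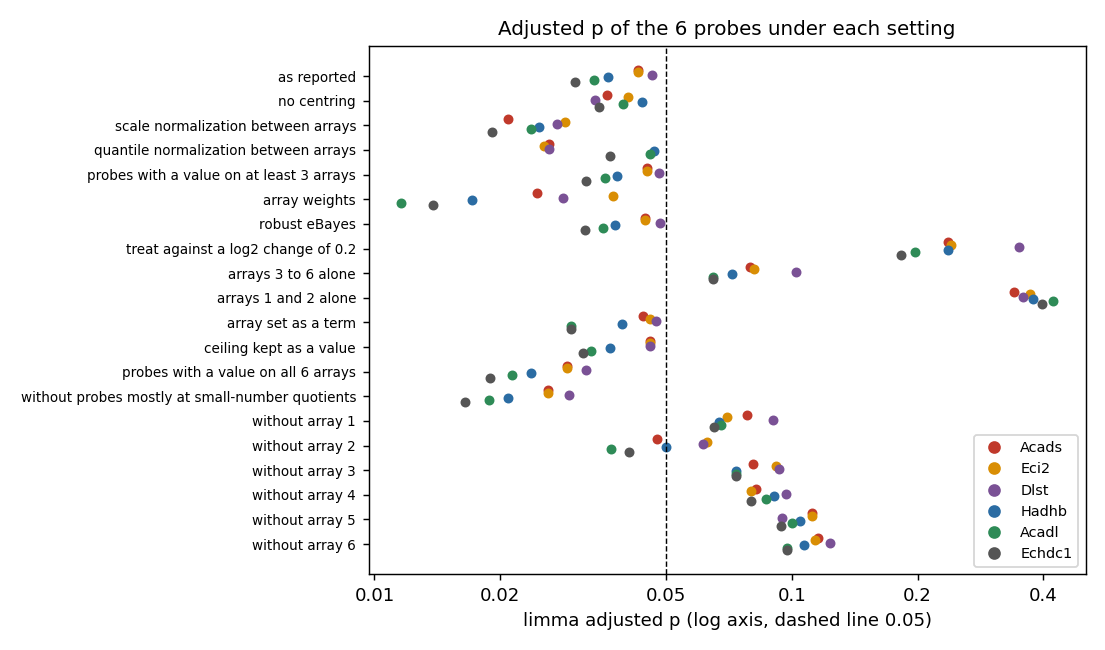
Limma adjusted p (horizontal log axis, dashed line at 0.05) of the 6 called probes under the reported setting and the alternatives, which run down the page. All 6 stay under 0.05 under each normalization and filter shown, and none does in the test against a log2 change of 0.2, on arrays 3 to 6 alone, on arrays 1 and 2 alone or without array 1, 3, 4, 5 or 6.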

How the data were processed

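RNA of Sox4 knockout and wild-type littermate pancreas was compared on 6 arrays with 2 channels. Per the label of arrays 1 and 2, the RNA was amplified linearly and labelled indirectly. The deposited values are log2 ratios, a base set by the ceiling of 16.61, which is log2 of 1e+05. The sources used here do not say how the authors scanned and normalized the arrays or which dye marked which RNA. The column medians, from -0.007 to 0.198 with the ceiling set aside, show that the values were not centred on 0. The intensities were not used, so signal over background is unknown, and precision is limited by the number of arrays.

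The ceiling, at 40 to 257 probes per array, was set to missing, and 439 to 1654 further probes per array had no value. Each array was centred on its median. Probes with at least 4 values, 21247 of 21888, entered a two-sided limma test of the mean ratio against 0 (version 3.58.1, R 4.3.3, lmFit and eBayes with an intercept only), with Benjamini-Hochberg adjustment over all of them and a threshold of 0.05. A ratio was called a quotient of small whole numbers when it lay within 6e-04 in log2 of a quotient of whole numbers up to 20. On simulated ratios for 21247 probes, log2 changes of 0.5, 1 and 2 were given to 67, 67 and 66 probes. They were recovered in 17.9%, 61.2% and 83.3% of these, with 1 false call. The real data had 1166 calls, more than the probes changed in the simulation, so these rates may not carry over.

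Of all probes 18388 had 1 gene symbol, 66 several and 3434 none, and all 90 member probes were found by Entrez ID in RefSeq. The members and lists were chosen with earlier results of these data known. Named were all called members with the other probes of their genes, the member with the smallest p of each role group without a call, members with at least 4 probes, a few textbook enzymes, and up to 3 called genes, or the one with the smallest p, of each other list. Other members were named after their values were seen. Alternatives were 14 other settings and each array left out in turn. Figures were drawn with matplotlib 3.10.9.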

Additional observations from a re-analysis of the deposited data

Results flagged for a closer look

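For each member probe, the gap between its highest or lowest array and the nearest other one was set against the range of its log2 ratios (KO over WT). Of 90 probes, 9 had an array with a large gap, and chance alone picks about 1 in 20.

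On array 2, Ogdh ZX-00129E11 was at -1.44, against -0.31 to 0.29 on the others. Sucla2 ZX-00118F02 was at 3.83 there, against -0.12 to 0.78, and its mean without that array was 0.38 in place of 0.96. Echdc3 PX-00617E22 was at -0.68, against -0.03 to 0.33, and Acot9 ZX-00131P03 at 0.22, against -0.35 to -0.15. Pex16 was at 0.63 on array 2, against 0.17 to 0.27, so its mean without that array was 0.21. Array 2 held 5 of the 9, and it had the widest spread over all probes, its median absolute deviation being 0.545, where the other arrays had 0.27 to 0.442.

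On array 5, Mdh1 ZA-00024N21 was at -3.01, against 1.27 to 2.97, so that its mean was 0.77 with array 5 and 1.71 without it. Also on array 5, Echdc3 ZA-00029P19 was at 3.26, against -0.57 to -0.08. The mean of that Echdc3 probe was 0.19 with array 5 and -0.42 without it. On array 4, Acot11 was at 2.36, against -0.82 to 0.26, and its mean without that array was -0.07 in place of 0.34. On array 3, Acot13 ZX-00128B07 was at 0.31, against 0.004 to 0.11. None of the 6 called probes had such an array.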

How the results depend on the processing

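The 6 member calls became 13 with array weights (14.4%, against 13% of all tested probes) and lay between 0 and 4 with 1 array left out. They became 0 with a test against a log2 change of 0.2, on arrays 3 to 6 alone or on arrays 1 and 2 alone. In that order, 8 of 90, 29 of 87 and 12 of 89 members were at an unadjusted limma p under 0.05. Over all tested probes these counts were 2302 of 21247, 6330 of 20657 and 2953 of 20831. The 1166 calls over all probes became 1786 with scale and 1789 with quantile normalization, 2752 with array weights, 37 against a change of 0.2, 13 on arrays 3 to 6, 0 on arrays 1 and 2 (2953 at an unadjusted limma p under 0.05) and 630 with 1 value per gene, and lay between 10 and 1072 with 1 array left out. The 5 calls of the other pathway lists became 14 with array weights, 8 without probes mostly at quotients of small whole numbers, 2 with 1 value per gene and 0 in the test against 0.2 and in each array set, and lay between 0 and 9 with 1 array left out. The members' median of 0.05 was 0.15 without centring and 0.14 with quantile normalization, both of which also moved the median of all probes. The cause of these shifts was not tested, except that 1 value per gene leaves fewer values to test and a smaller array set fewer arrays. Of members not called on 6 arrays, Acadsb ZA-00031F13 passed in 6 alternatives (limma adjusted p from 0.0262 to 0.0467), Pex16 in 3, Mdh1 ZX-00127B23 in 2, and Mdh1 ZA-00024D21, Pdha2 PX-00619P13, Hadh, Echdc1 ZA-00029G03, Pex3 ZX-00127D20, Acot12 PX-00619D15 and Mdh1b in 1 each. No paired analysis was possible because each array gives 1 ratio of both RNAs, so there is 1 group.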
